A study of Homo sapiens with 4 samples.

Results

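Phase II conjugation enzymes attach a water-soluble group to drugs, hormones, bile acids and other small molecules so that these can leave the cell. The 56 genes described here were chosen by symbol from the 59652 genes of the count table. They are 9 UGT1A and 10 UGT2 genes (UDP-glucuronosyltransferases), 13 SULT genes (sulfotransferases), 18 cytosolic and mitochondrial GST genes and 3 MGST genes (glutathione S-transferases), and NAT1, NAT2 and TPMT. The RNA came from Huh7 and PLC cells, established human hepatocellular carcinoma lines that the labels give as wild type (WT). Each line was grown for 48 h in glucose-free DMEM with fetal bovine serum, to which 5 mM (low) or 25 mM (high) glucose was added. Each line at each glucose level gave 1 library, so there were 4 libraries and no replicate culture. The libraries held 21376239 counted reads in Huh7 at 5 mM, 30085303 in Huh7 at 25 mM, 30279716 in PLC at 5 mM and 16049686 in PLC at 25 mM.

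UGT enzymes of the endoplasmic reticulum transfer glucuronic acid from UDP-glucuronic acid, and the UGT1A enzyme best known in liver, UGT1A1, conjugates bilirubin. SULT enzymes of the cytosol take sulfate from the donor PAPS and act on phenols, oestrogens, androgens and bile acids. GST and MGST enzymes join glutathione to reactive electrophiles, NAT enzymes acetylate aromatic amines, and TPMT methylates thiopurine drugs. Many of these genes are used by hepatocytes under control of HNF4A, C/EBP, nuclear receptors and NRF2.

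Sequence before the RefSeq start is shown first for genes on which the results turn. Members of the alpha-class GST pair differed between the lines together, and the UGT1A genes have separate starts before shared exons. The sequences are RefSeq promoter windows of GRCh38.p14, given 5′ to 3′ on the strand of the gene. They are the stretches chr6:52803917-52804016 for GSTA1 and chr6:52763576-52763675 for GSTA2 (both minus strand), chr2:233712807-233712906 for UGT1A5 and chr2:233760170-233760269 for UGT1A1 (both plus strand). Stretches of 30 bases follow for MGST1 (chr12:16347582-16347611), GSTP1 (chr11:67583736-67583765) and SULT1C2 (chr2:108288822-108288851), all on the plus strand. These 30-base stretches lie before the RefSeq start but inside the span of the gene as counted, for GSTP1 in part. As counted, MGST1 starts at 16347142, GSTP1 at 67583742 and SULT1C2 at 108288639. Capitals mark a match to the letters GTTAAT in the first 5 sequences and a match to TGACNNNGC, the core of antioxidant response elements (ARE), in the last pair, on either strand.
GSTA1: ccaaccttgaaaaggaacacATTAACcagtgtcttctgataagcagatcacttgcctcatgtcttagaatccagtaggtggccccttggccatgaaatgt
GSTA2: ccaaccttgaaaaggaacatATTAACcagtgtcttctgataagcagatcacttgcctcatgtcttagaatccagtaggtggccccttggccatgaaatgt
MGST1: agggctaATTAACaggagATTAACtggaga
UGT1A5: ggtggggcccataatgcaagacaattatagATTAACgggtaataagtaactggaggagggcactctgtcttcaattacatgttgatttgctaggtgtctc
UGT1A1: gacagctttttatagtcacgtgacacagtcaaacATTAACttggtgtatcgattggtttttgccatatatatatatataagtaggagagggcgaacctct
GSTP1: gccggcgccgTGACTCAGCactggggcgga
SULT1C2: tccctcccaggGCCAGGTCAcagggtttgt
The GSTA1 and GSTA2 stretches were identical at 99 of 100 bases, and the whole windows, from 250 bases before to 50 after the start, at 288 of 300. A window was given for 44 of the 56 genes. The letters GTTAAT were present in 8 of these 44 windows and in 6.89% of the windows of all 27305 symbols, the ARE letters in 9 of 44 and 13.6%, and the letters GCGTG, the core of sites of the aryl hydrocarbon receptor (XRE), in 13 of 44 and 36.3%. Both strands were searched, and no match of 1 motif overlapped a match of another in these genes. A match describes the letters in the window and is not a binding site.

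Read counts were turned into FPKM, which scales them by the gene length of the table and by the library total, so that levels could be set beside each other between genes. An FPKM over 0.5 was present in at least 1 library for 32 of the 56 genes. More than 3 reads were counted in all 4 libraries for 30 genes, while 11 had 3 reads or fewer in each library. No read at all was counted on GSTA3, GSTT4, SULT1A4, SULT4A1 and UGT2A2. At this depth a count of 0 allows up to 3 reads and was not read as absence. The other genes at 3 reads or fewer in each library were UGT2B17, SULT1A3, SULT1C3, GSTA5, GSTM5 and NAT2, the arylamine N-acetyltransferase typical of adult liver.

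GSTP1, the pi-class glutathione transferase that adult hepatocytes carry little of, had the highest level of the set in every library. Its FPKM was 329 and 342 in Huh7 at 5 and 25 mM and 916 and 580 in PLC. GSTP1 made up 71.9% and 72.9% of the summed FPKM of the GST genes in Huh7 and 92.5% and 88.0% in PLC. The next levels in Huh7 belonged to GSTO1, UGT2B4, MGST1 and, at 5 mM, SULT2A1, and those in PLC to SULT1C4 and GSTO1.

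The levels of the families were compared between the lines as summed FPKM. Summed FPKM of the UGT1A genes was 2.30 and 3.25 in Huh7 at 5 and 25 mM and 0.917 and 2.18 in PLC. For the UGT2 genes the sums were 52.3 and 58.9 in Huh7 and 74.7 and 70.1 in PLC, and for the SULT genes 50.4 and 19.8 in Huh7 and 59.3 and 41.6 in PLC. The GST genes summed to 457 and 470 in Huh7 and 990 and 659 in PLC, the MGST genes to 49.2 and 50.9 in Huh7 and 16.8 and 24.5 in PLC, and NAT1, NAT2 and TPMT together to 6.62 and 8.53 in Huh7 and 14.8 and 14.7 in PLC. UGT1A and MGST sums were thus higher in Huh7 at both glucose levels, and the other sums were higher in PLC at both. Some of these directions rest on a single gene. Without GSTP1, the GST sum was higher in Huh7 at both glucose levels, and so was the SULT sum without SULT1C4. Without UGT2A3, or without UGT2B11, the UGT2 sum was higher in PLC at 5 mM and in Huh7 at 25 mM. Without MGST1, the MGST sum was higher in Huh7 at 5 mM and in PLC at 25 mM. TPMT made up 86.8% and 86.4% of its sum in Huh7 and 97.3% and 95.2% in PLC, while NAT1 FPKM was higher in Huh7 at both glucose levels. The ratio of Huh7 to PLC, as the geometric mean over both glucose levels, was 1.93 for UGT1A, 2.47 for MGST, 0.767 for UGT2, 0.635 for SULT, 0.574 for GST and 0.509 for NAT and TPMT. The genes that carried these sums differed between the lines. UGT2B4 made up 85.8% and 83.3% of the UGT2 sum in Huh7 and 22.1% and 20.1% in PLC, SULT2A1 65.0% and 52.8% of the SULT sum in Huh7 and no read of it in PLC, and SULT1C4 95.5% and 87.3% of the SULT sum in PLC.

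The difference between the lines was tested across all genes with the quasi-likelihood test of edgeR, in a fit with line and glucose as terms, which leaves 1 residual degree of freedom among the 4 libraries. The p-values measure the spread between these libraries only, which are not replicate cultures, and an exact permutation test of 2 libraries against 2 could not go below 0.333. Of 23217 genes tested, 42.9% were called at an adjusted p under 0.05, 21.8% higher in Huh7 and 21.1% higher in PLC. Of the 56 conjugation genes, 40 had enough reads to be tested, and 28 of these were called, 16 higher in Huh7 and 12 higher in PLC. The median log2 difference, Huh7 over PLC, was 0.79 over the 40 tested conjugation genes and 0.03 over all genes tested. Genes at 0 reads in a line stay on the same side of this median at their bound, so their bounds cannot move it. Genes with reads in 1 line alone passed the filter through that line, so the counts and the median describe the tested genes and not all 56. With at least 10 counts in every library, 6 of 25 tested conjugation genes were called higher in Huh7 and 10 higher in PLC. Of all 16164 genes tested there, 6340 were called. For 27 of the 28 called genes the ratio at 5 mM and the ratio at 25 mM both lay on the side of the call beyond counting error, the exception being SULT1C2. These ratios use the libraries that gave the calls, so they are not a separate check. With 1 library left out, 17 of the 28 calls held without Huh7 at 5 mM, 18 without Huh7 at 25 mM (where UGT1A5 and GSTT2B were not tested), 25 without PLC at 5 mM and 25 without PLC at 25 mM. The fits with 1 library left out had line as the only term. Each set 1 library at 1 glucose level against 2 at both levels, so line and glucose were mixed. By DESeq2, 17 of the 28 held. GSTA4, GSTM3, GSTM4, GSTO1, GSTT2B, SULT1B1, SULT1C2, TPMT, UGT1A1, UGT1A5, UGT1A8, UGT1A10 and UGT2B28 lost the call without at least 1 of these libraries.

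Among the sulfotransferases, the lines used different genes. SULT2A1, which sulfates DHEA and bile acids, had 1333 and 598 reads in Huh7 at 5 and 25 mM (FPKM 32.8 and 10.4) and 0 reads in both PLC libraries. It was at least 629-fold higher in Huh7 at 5 mM and at least 106-fold higher at 25 mM, with the 0 set to 3 reads per library. SULT2B1, a cholesterol and pregnenolone sulfotransferase, showed the opposite, with 0 reads in both Huh7 libraries and 61 and 47 in PLC. It was at least 14.4-fold and 29.4-fold lower in Huh7. SULT1C4, an enzyme of fetal tissues, had FPKM of 10.4 and 4.04 in Huh7 and 56.6 and 36.3 in PLC, a log2 difference of -2.81 (SE 0.25, edgeR adjusted p = 1.4e-06). SULT1A2, a close relative of the phenol sulfotransferase SULT1A1, was higher in Huh7 by a log2 difference of 1.91 (SE 0.43, edgeR adjusted p = 0.0032), and SULT1B1, which acts on thyroid hormones, by 2.48 (SE 0.65, edgeR adjusted p = 0.0074). SULT1A1 did not pass the test. Its FPKM was 1.63 and 1.22 in Huh7 and 0.578 and 2.07 in PLC, so its lines overlapped. The oestrogen sulfotransferase SULT1E1 had 12 to 25 reads in every library and did not pass either (log2 difference -0.50, SE 0.75). SULT1C2 was called higher in Huh7 (log2 1.38, SE 0.44, edgeR adjusted p = 0.021), but its FPKM of 1.93 and 0.336 in Huh7 and 0.433 and 0.245 in PLC overlapped between the lines. Without the Huh7 library at 5 mM, in a fit with line as the only term, its difference was -0.055. That fit set Huh7 at 25 mM alone against PLC at both glucose levels.

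Among the glutathione transferases, the alpha-class pair GSTA1 and GSTA2 and the mu-class GSTM1 were far higher in Huh7. GSTA1, an abundant hepatocyte enzyme, had 305 and 394 reads in Huh7 and 0 and 2 in PLC. It was at least 144-fold higher in Huh7 at 5 mM, and 105-fold higher at 25 mM with a 95% counting interval of 28.9 to 871. GSTA2, whose upstream stretch above differs from that of GSTA1 at 1 base, had 106 and 129 reads in Huh7 and 4 and 0 in PLC, 37.5-fold higher at 5 mM (interval 14.2 to 140) and at least 22.9-fold at 25 mM. Both libraries of Huh7 were thus far above both of PLC for this pair. Of the 50-base stretches of GSTA1, 19.7% occur in GSTA2, and of those of GSTA2, 22.0% occur in GSTA1. The 2 differences are therefore not wholly separate. GSTM1 had 201 and 354 reads in Huh7 and 0 reads in both PLC libraries, at least 94.9-fold and 62.9-fold higher in Huh7. Of the 50-base stretches of GSTM1, 51.5% also occur in another gene, so reads of such stretches cannot be assigned to 1 gene. Its neighbours on chromosome 1, GSTM3 and GSTM4, were instead higher in PLC. GSTM3 had FPKM of 4.28 and 6.35 in Huh7 and 9.62 and 12.8 in PLC (log2 -1.09, SE 0.25, edgeR adjusted p = 0.0031), and GSTM4 1.72 and 2.13 in Huh7 and 3.29 and 3.83 in PLC (log2 -0.90, SE 0.29, edgeR adjusted p = 0.024).

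GSTP1 was higher in PLC, by a log2 difference of -1.12 (SE 0.21, edgeR adjusted p = 0.00092), with the 2 lines apart at both glucose levels. GSTO1, an omega-class thioltransferase and dehydroascorbate reductase, was higher in Huh7, with FPKM of 73.0 and 65.7 against 39.8 and 34.1 in PLC (log2 0.91, SE 0.22, edgeR adjusted p = 0.0052). GSTA4, which conjugates the lipid peroxidation product 4-hydroxynonenal, was higher in Huh7 by 0.71 (SE 0.27) at an edgeR adjusted p of 0.048, close to the threshold. GSTT2B had 13 and 16 reads in Huh7 and 0 reads in both PLC libraries, at least 6.14-fold and 2.85-fold higher in Huh7, but 90.9% of its 50-base stretches also occur in GSTT2. The peroxisomal and mitochondrial GSTK1, the tyrosine-breakdown enzyme GSTZ1, GSTO2 and GSTM2 did not pass the test, with log2 differences of 0.24, -0.59, 0.90 and -0.94. GSTK1 had FPKM of 15.7 and 16.6 in Huh7 and 12.4 and 14.9 in PLC.

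The 3 microsomal transferases went in different directions. MGST1, of the endoplasmic reticulum and the outer mitochondrial membrane, had FPKM of 33.3 and 32.6 in Huh7 and 3.69 and 2.08 in PLC, a log2 difference of 3.56 (SE 0.27, edgeR adjusted p = 3.2e-07). MGST3 had 1.89 and 1.73 in Huh7 and 5.13 and 8.70 in PLC, a log2 difference of -1.89 (SE 0.28, edgeR adjusted p = 0.00014). MGST2, able to make leukotriene C4, had 14.0 and 16.6 in Huh7 and 7.96 and 13.7 in PLC and did not pass (log2 0.54, SE 0.25, edgeR adjusted p = 0.10). Of its exon bases, 252 overlap MAML3 on the opposite strand, and the strand setting of the counting is not given in the sources used here. TPMT was higher in PLC (log2 -1.13, SE 0.26, edgeR adjusted p = 0.0036), with FPKM of 5.74 and 7.37 in Huh7 and 14.4 and 14.0 in PLC. NAT1 had 0.876 and 1.11 in Huh7 and 0.398 and 0.712 in PLC and did not pass (log2 0.88, SE 0.45).

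Of the 7 tested UGT2 genes, UGT2B4 was higher in Huh7 and 4 were higher in PLC. UGT2B4, which glucuronidates bile acids, had FPKM of 44.8 and 49.0 in Huh7 and 16.5 and 14.1 in PLC (log2 1.61, SE 0.24, edgeR adjusted p = 0.00012). UGT2A3 had 32 and 46 reads in Huh7 and 1958 and 872 in PLC. With FPKM of 0.487 and 0.497 in Huh7 and 21.0 and 17.7 in PLC, it was 43.2-fold higher in PLC at 5 mM and 35.5-fold at 25 mM (log2 -5.29, SE 0.32, edgeR adjusted p = 4.1e-08). UGT2B7, the enzyme of morphine glucuronidation, had FPKM of 1.88 and 1.13 in Huh7 and 15.2 and 12.1 in PLC (log2 -3.22, SE 0.32, edgeR adjusted p = 3.2e-06), and UGT2B11 had 4.39 and 6.75 in Huh7 and 21.1 and 23.3 in PLC (log2 -2.03, SE 0.27, edgeR adjusted p = 5.8e-05). Both libraries of PLC were above both of Huh7 for each of these 3 genes. UGT2B28, an androgen-conjugating enzyme, was higher in PLC on few reads (4 and 10 in Huh7 and 23 and 58 in PLC). UGT2B11 and UGT2B28 share 42.6% and 34.3% of their 50-base stretches with other genes, and 435 exon bases of UGT2B11 overlap AC111000.4 on the opposite strand. UGT2B10 and UGT2B15 did not pass the test, with log2 differences of 1.10 (SE 0.59) and -0.66 (SE 0.75).

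The 9 UGT1A genes lie on chromosome 2 (GRCh38), each with its own start, and end in the same 4 exons. In the annotation deposited with the counts these exons are chr2:233767034-233767165, chr2:233767849-233767936, chr2:233768220-233768439 and chr2:233772262-233773299, together 1478 bases that belong to all 9 genes. A read from there cannot be assigned to 1 gene. The first exon of UGT1A3 also overlaps an exon of UGT1A6, and that of UGT1A6 an exon of UGT1A7. The bases of a gene free of any other gene ranged from 472 for UGT1A3 to 2475 for UGT1A7. UGT1A1, with 2218 of its 4446 bases free, had 26 and 103 reads in Huh7 and 85 and 122 in PLC. In both PLC libraries UGT1A3, UGT1A4 and UGT1A5 had 0 reads, so no read of the exons common to all 9 genes was counted for each of them. FPKM by the full length then understates the level of a gene whose reads came from its own bases. With the free bases as length, UGT1A1 had 0.548 and 1.54 in Huh7 and 1.27 and 3.43 in PLC.

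The UGT1A genes divided between the lines. UGT1A1 made up 11.9% and 23.7% of the UGT1A sum in Huh7 and 68.9% and 78.3% in PLC, and was called higher in PLC (log2 -1.18, SE 0.40, edgeR adjusted p = 0.031). That call was lost without Huh7 at 5 mM, without Huh7 at 25 mM and without PLC at 25 mM (edgeR adjusted p of 0.59, 0.052 and 0.62). UGT1A7, UGT1A8 and UGT1A10, which are known from the gut rather than the liver, were higher in Huh7. UGT1A7 had 35 and 38 reads in Huh7 and 5 and 0 in PLC (log2 3.96, SE 0.96, edgeR adjusted p = 0.0046), UGT1A8 24 and 40 in Huh7 and 6 and 0 in PLC (log2 3.43, SE 1.01, edgeR adjusted p = 0.014), and UGT1A10 32 and 44 in Huh7 and 10 and 9 in PLC (log2 1.77, SE 0.67, edgeR adjusted p = 0.049). UGT1A5 had 10 and 16 reads in Huh7 and 0 reads in both PLC libraries, at least 4.72-fold and 2.85-fold higher in Huh7. None of the UGT1A differences called by edgeR was called by DESeq2, with adjusted p of 0.067 for UGT1A7, 0.12 for UGT1A8, 0.22 for UGT1A1, 0.24 for UGT1A5 and 0.35 for UGT1A10. UGT1A10 was also not called without Huh7 at 5 mM, Huh7 at 25 mM or PLC at 5 mM. UGT1A6, which acts on simple phenols, and UGT1A9 did not pass the test. UGT1A3 and UGT1A4 had 6 to 17 reads in Huh7 and were not tested.

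Marker genes moved with the lines too. Of 12 hepatocyte and liver tumour markers, 9 were higher in Huh7 and KRT18 was higher in PLC, and their summed FPKM was 5745 and 5928 in Huh7 and 1170 and 2071 in PLC. ALB, the albumin gene, had FPKM of 2017 and 2039 in Huh7 and 52.4 and 72.3 in PLC, and TTR had 0 reads in PLC at 25 mM. In bulk RNA, fewer cells of a type and less RNA per cell cannot be told apart. Blood markers summed to 0.0145 to 0.0779 FPKM, and CD3E and HBB had 0 reads in all 4 libraries. Stroma markers summed to 0.596 and 0.498 in Huh7 and 0.690 and 1.32 in PLC, with COL1A1 and PDGFRB called higher in Huh7 and COL3A1 in PLC, and endothelial markers to 2.37 and 2.55 in Huh7 and 0.122 and 0.310 in PLC, nearly all of it PECAM1, as VWF and CDH5 had 0 to 2 reads. The intestinal markers CDX2, VIL1 and LGR5 summed to 24.5 and 28.7 in Huh7 and 16.6 and 24.7 in PLC, and of these CDX2 (log2 2.09) and VIL1 (2.18) were called higher in Huh7 and LGR5 (-2.87) in PLC. The part of these differences in the results on conjugation genes was not tested.

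Glucose was the question of the study, and only a change shared by both lines could be tested. Of 23217 genes, 0.379% were called in the same edgeR fit, and of the 40 tested conjugation genes 0 were called, with 6 at an unadjusted p under 0.05. The median log2 change, 25 over 5 mM, was 0.16 over the 40 genes and -0.01 over all genes tested. The 6 genes were SULT1C4 (log2 -1.07, SE 0.24, edgeR adjusted p = 0.090), SULT1C2 (-1.82, SE 0.44, edgeR adjusted p = 0.12), SULT2A1 (-1.68, SE 0.41, edgeR adjusted p = 0.13), UGT1A1 (1.38, SE 0.41, edgeR adjusted p = 0.21), UGT1A9 (3.61, SE 1.08, edgeR adjusted p = 0.23) and UGT2B28 (1.67, SE 0.70, edgeR adjusted p = 0.50). By DESeq2, SULT1C4 alone was called, limma-voom called 0, and edgeR without a filter on low counts called the 3 SULT genes. Over all genes, DESeq2 called 194 of 23217 and edgeR without the filter 526 of 38660. The value of SULT2A1 rests on Huh7, since PLC had no read.

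Within a line, 1 library was set against 1, so there is no replicate check and no test. The thresholds were those of the study's methods, with 0.5 as the FPKM minimum and ratios above 1.5 or below 0.67 counted. Adding 0.1 to both FPKM values and asking for the FPKM minimum in either library of the pair were choices made here. In Huh7, 4 of 28 conjugation genes over the FPKM minimum (14.3%) were higher at 25 mM, against 14.1% of 21864 genes, and 4 (14.3%) were lower, against 13.7%. In PLC, 9 of 23 (39.1%) were higher, against 26.2% of 21749 genes, and 3 (13.0%) were lower, against 17.0%. The Huh7 shares and the share of lower genes in PLC were close to those of all genes. UGT1A1 was past the thresholds upward in both lines and SULT1C4 downward in both. No conjugation gene was past them in opposite directions.

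Of the 4 genes lower at 25 mM in Huh7, 3 were sulfotransferases. SULT1C2 went from 347 reads (5 mM) to 85 (25 mM) in Huh7, a ratio of 0.174 (95% Clopper-Pearson interval 0.136 to 0.221), and 110 and 33 in PLC, a ratio of 0.566 (0.371 to 0.842). Its FPKM in PLC stayed under the minimum in both libraries. SULT1C4 had 849 and 465 reads in Huh7, a ratio of 0.389 (0.347 to 0.436), and 6562 and 2232 in PLC, a ratio of 0.642 (0.611 to 0.673). The SULT2A1 ratio in Huh7 was 0.319 (0.289 to 0.351). All 3 are sulfotransferases whose Huh7 interval lay wholly below 0.67. The close relatives SULT1A1 and SULT1A2 were higher at 25 mM in PLC, with ratios of 3.58 (2.94 to 4.37) and 2.32 (1.45 to 3.73). In Huh7 their ratios were 0.749 (0.640 to 0.878) and 0.943 (0.757 to 1.18). Of the stretches of SULT1A1, counted as for GSTA1 and GSTA2 above, 5.29% occur in SULT1A2. Of those of SULT1A2, 18.6% occur in SULT1A1. The ratios of SULT1A1 and SULT1A2 are therefore not wholly separate.

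Among the UGT genes, UGT1A1 had ratios of 2.81 (1.82 to 4.51) in Huh7 and 2.71 (2.04 to 3.62) in PLC. UGT1A9, a phenol-conjugating enzyme, had 2 and 37 reads in Huh7, a ratio of 13.1 (3.39 to 113), and 1 and 8 in PLC, a ratio of 15.1 (2.02 to 670), and reached the FPKM minimum in Huh7 alone. UGT1A6 and UGT1A10, with reads in all 4 libraries, had intervals that included 1 in both. UGT2B10, which glucuronidates nicotine and other amines, had ratios of 2.16 (1.32 to 3.68) in Huh7 and 2.01 (0.932 to 4.37) in PLC. UGT2B15, which acts on androgens, had 2.44 (1.02 to 6.70) in Huh7 and 2.11 (1.04 to 4.32) in PLC, on 7 to 24 reads a library. UGT2B28 had 23 and 58 reads in PLC, a ratio of 4.76 (2.89 to 8.08). UGT2B11 was past the threshold in Huh7 at 1.54 (1.31 to 1.81), where its ratio in PLC was 1.10 (1.01 to 1.2). UGT2B7 was lower in Huh7 at 0.601 (0.438 to 0.823), with 0.800 (0.714 to 0.895) in PLC.

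The glutathione transferases of Huh7 stayed within the thresholds, all 11 GST genes and 3 MGST genes over the FPKM minimum. In PLC, GSTP1 had a ratio of 0.634 (0.622 to 0.645) and MGST1 0.565 (0.488 to 0.651), while MGST2, MGST3 and GSTZ1 had 1.72 (1.55 to 1.91), 1.70 (1.56 to 1.84) and 1.90 (1.64 to 2.19). The same genes in Huh7 had ratios of 1.04 for GSTP1, 0.979 for MGST1, 1.18 for MGST2 and 0.914 for MGST3, and GSTZ1 had an FPKM of 1.38 at both glucose levels. GSTA1, GSTA2 and GSTM1, far higher in Huh7 than in PLC, had ratios of 0.918 (0.788 to 1.07), 0.865 (0.664 to 1.13) and 1.25 (1.05 to 1.5) in Huh7. GSTM2 had 2.16 (1.33 to 3.63) in Huh7 and 1.53 (1.08 to 2.18) in PLC, with FPKM under the minimum in all 4 libraries. NAT1 had 1.79 (1.10 to 2.90) in PLC and 1.26 (0.911 to 1.77) in Huh7, and TPMT 0.973 (0.888 to 1.07) in PLC and 1.28 (1.13 to 1.46) in Huh7.

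Genes that supply the conjugation reactions were taken from lists. In the list of UDP-glucuronic acid supply, 1 of 5 tested genes was called between the lines, UGP2, which makes UDP-glucose (higher in PLC, log2 -2.31, edgeR adjusted p = 2.2e-06). UGDH, which oxidises UDP-glucose to UDP-glucuronic acid, had FPKM of 93.3 to 130 over the 4 libraries and was not called. Of 9 genes of sulfate donor supply, 2 were higher in PLC, the PAPS synthase PAPSS2 (FPKM 6.65 and 5.49 in Huh7, 11.3 and 12.8 in PLC) and the steroid sulfatase STS (log2 -2.02), and 0 higher in Huh7. Of 10 genes of glutathione synthesis and turnover, 6 were higher in PLC and 0 in Huh7: GCLM, GSS, GGT1, CHAC1, CHAC2 and OPLAH. This list held the only genes of the 7 lists called for glucose. CHAC1, which degrades glutathione, fell by 3.82 on the log2 scale at 25 mM (SE 0.35, edgeR adjusted p = 0.00043), and the cystine transporter gene SLC7A11 fell by 1.99 (SE 0.24, edgeR adjusted p = 0.0029), 2 of 10 tested beside 0.379% of all genes.

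Of 9 tested genes of methyl donor supply and other methyltransferases, 2 were higher in Huh7 (HNMT and AHCY) and 4 in PLC (NNMT, MAT1A and GNMT among them), with log2 differences of 2.95 for HNMT and -7.50 for NNMT. Of 10 tested genes of other conjugating enzymes, 4 were higher in Huh7 (UGT8, GLYATL1, ACSM2B and GSTCD) and 3 in PLC. The 3 were BAAT, which joins bile acids to glycine or taurine (log2 -5.47), PTGES (-5.11) and NAT8 (-1.81). Of 18 regulators of conjugation genes, 9 were higher in Huh7 and 3 in PLC. FOXA2 had 4 and 0 reads in PLC and the bile acid receptor gene NR1H4 5 and 0, against FPKM of 40.2 and 38.6 and of 69.6 and 84.7 in Huh7, and CEBPA was higher in Huh7 by 4.45. HNF4A, AHR and NFE2L2, the gene of NRF2, were not called. RXRA, CDX2, NR1I3, FOXA1 and FOXA3 were also higher in Huh7, and PPARA and ARNT were higher in PLC. Past the glucose thresholds in both lines in 1 direction, besides CHAC1 and SLC7A11, were NAT8 and CDX2 (higher at 25 mM) and BAAT and the nuclear receptor gene NR1I3 (lower), of which NAT8 had ratios of 1.72 in Huh7 and 4.16 in PLC. Of 7 transporters that carry conjugates out of cells, ABCC3 (log2 4.67) and ABCC5 (0.94) were higher in Huh7 and ABCC2 (-0.93) and ABCG2 (-1.04) in PLC. These counts stand beside 21.8% and 21.1% of all genes tested. Median log2 differences between the lines were -0.53 for UDP-glucuronic acid supply, -0.32 for sulfate donor supply and -0.75 for the glutathione list. They were -0.22 for the methyl list, 1.26 for other conjugating enzymes, 0.78 for regulators and -0.34 for efflux, beside 0.03 over all genes. GLYATL1, at 0 reads in PLC, is among the other conjugating enzymes.

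The letters GTTAAT were in the windows of 4 of 12 conjugation genes called higher in Huh7 that have a window (GSTA1, GSTA2, MGST1 and UGT1A5). They were in 1 of 11 called higher in PLC (UGT1A1) and in 3 of 21 not called or not tested (UGT1A3, UGT2A1 and SULT1E1), beside 6.89% of all windows. The windows of GSTA1 and GSTA2 are nearly identical, so their matches are not separate. The ARE letters were in 5 of these 12, 2 of these 11 and 2 of these 21, beside 13.6% of all windows. The XRE letters were in 3, 4 and 6, beside 36.3%. The numbers are small and were not tested.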

How the data were processed

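The authors extracted total RNA with TRIzol, removed rRNA and built directional libraries. The deposited unit is the count, a whole number of reads per gene without normalization. The submitters' processing notes name HISAT2, featureCounts and hg38, with no version, and the paper's methods name FPKM for this screen. Annotation release, strand setting and the handling of reads that fit several genes are not given in the sources used here. Of 59657 data lines, 59652 genes were used, and 5 lines of a broken ANK2 entry were left out. The 37 mitochondrial genes had 0 reads in all libraries.

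FPKM was computed from the count, the length in the table and the library total. Ratios carry 0.1 added to both FPKM values where thresholds are applied, and printed ratios have none added. Intervals are exact Clopper-Pearson 95% intervals and cover counting error only. Against 0 reads a fold is a bound at 3 reads, against 1 to 3 reads it is a ratio with its interval, and none is given where both libraries had 3 reads or fewer. Tests used edgeR 4.0.16 (R 4.3.3) with TMM, filterByExpr on the line and the terms glucose and line. Fits with 1 library left out had line as the only term. Benjamini-Hochberg adjustment covered all genes tested. The fit was also run on simulated data with few changed genes and a fixed spread. These libraries differ from that setting, so the simulation gives no error rate for them. DESeq2 1.42.0 and limma 3.58.1 were alternatives. All 56 genes were found in GENCODE 44 at an overlapping position, and near-identical copies were counted as 50-base stretches shared with another gene's transcripts.

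Every gene of the symbol rule may be named. From the lists, genes called in either edgeR comparison were named, or past the glucose thresholds in both lines in 1 direction with 20 reads or more in the higher library of both. UGDH, HNF4A, AHR, NFE2L2, CD3E, HBB, VWF, CDH5 and overlapping genes were named after their values were seen. The genes, lists, motifs and tests were chosen with earlier results of these data known. Some genes of the lists are not reported here by name and count in the totals only.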

Additional observations from a re-analysis of the deposited data

Results flagged for a closer look

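For 3 conjugation genes the ratio of 25 over 5 mM glucose lay above 1 in one cell line and below 1 in the other, with counting intervals that excluded 1 in both. No test of the 2 ratios against each other was made, since each ratio compares 1 library with 1 and there is no replicate culture. SULT1A1, the main phenol sulfotransferase, had a ratio of 0.749 in Huh7 and 3.58 in PLC. With TMM scaling the values were 0.729 and 3.29. GSTP1 had 1.04 in Huh7 and 0.634 in PLC, but with TMM scaling its Huh7 ratio of 1.01 had an interval that included 1 (0.991 to 1.04). UGT2B4 had 1.09 in Huh7 and 0.852 in PLC, and 1.06 and 0.784 with TMM scaling. Of the 3, SULT1A1 alone was past the ratio thresholds upward in PLC and GSTP1 alone downward.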

How the results depend on the processing

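No paired analysis was possible because the labels give no replicate numbers and each cell line and glucose level had 1 library, so nothing below the line could be paired. The line itself was a term of the glucose test, and without it edgeR called 0 of 23217 genes for glucose, with 1 conjugation gene at an unadjusted p under 0.05. Between the lines, edgeR called 16 conjugation genes higher in Huh7 and 12 higher in PLC. The Huh7 count was 6 with at least 10 counts in every library, where fewer genes can be tested, and 8 by DESeq2, with 10 and 9 for PLC. Under that filter 16 of 25 tested conjugation genes were called, beside 6340 of all 16164 genes tested. DESeq2 called 17 of 40, beside 7160 of 23217. By DESeq2 GSTA4, GSTM4, GSTT2B, SULT1B1, SULT1C2, UGT1A1, UGT1A5, UGT1A7, UGT1A8, UGT1A10 and UGT2B28 lost the call (adjusted p 0.064 to 0.35), and without the glucose term GSTA4, SULT1C2 and UGT1A1 (0.079 to 0.21). RLE scaling, library totals, limma-voom, no filter and a fit without glucose gave 14 to 16 and 11 to 12. Over all genes these settings called from 8812 (without glucose) to 10597 (limma-voom) of 23217, and 10305 of 38660 with no filter. Leaving out 1 library at a time gave 9 to 18 higher in Huh7 and 7 to 13 higher in PLC, with the lowest totals (18 called) without either Huh7 library. Without Huh7 at 5 mM, GSTA4, GSTM3, GSTM4, GSTO1, GSTT2B, TPMT, UGT1A1, UGT1A5, UGT1A10 and UGT2B28 lost the call (edgeR adjusted p from 0.052 for GSTT2B to 0.59 for UGT1A1), and without Huh7 at 25 mM GSTA4, GSTM4, GSTO1, SULT1B1, TPMT, UGT1A1, UGT1A8 and UGT1A10 did (0.052 for UGT1A1 to 0.46 for GSTA4). Without PLC at 5 mM GSTA4, UGT1A5 and UGT1A10 lost it (0.063 to 0.12), and without PLC at 25 mM SULT1C2, UGT1A1 and UGT2B28 (0.15 to 0.62). In these fits the SULT1C2 difference ran from -0.055 without Huh7 at 5 mM to 2.49 without Huh7 at 25 mM, reversing in the former. Both set Huh7 at 1 glucose level against PLC at both levels. The cause was not tested.

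For the shared glucose change, 0 conjugation genes were called higher under any setting and 0 lower, except 3 lower with no filter and 1 by DESeq2. These were of 51 and 40 tested, beside 526 of 38660 and 194 of 23217 genes. The count of 4 past the thresholds upward in Huh7 became 0 with a pseudocount of 1, 1 with FPKM over 0.5 in both libraries, 1 with FPKM over 1, 2 with ratios over 2, and 8 with no FPKM filter. In PLC the 9 higher became 4 and the 3 lower became 0 with ratios over 2 or under 0.5, and 6 were lower with no FPKM filter. Calculated on exon length not shared with another gene, the family ratio of Huh7 to PLC was 2.30 for UGT1A and 0.734 for UGT2. UGT1A gave no value once genes with shared exons were left out. The lowest depth was that of PLC at 25 mM, and ratios on a few reads in either library of a pair have wide intervals, as UGT1A9 shows.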
